A study of Mus musculus with 4 samples.

Results

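The BCL2 family and the executioner caspases, the proteins that decide whether a cell opens its mitochondria and dismantles itself, were followed in mouse lenses in which Celf1, the gene of an RNA-binding protein, was deleted. The members were the genes Bcl2, Bcl2l1, Mcl1, Bax, Bak1, Bid, Bad and Casp6, taken as every array probe that carries one of these symbols, which gave 8 of the 28851 genes on the array and 13 probes. Lenses at postnatal day 6 were measured on Illumina MouseWG-6 v2.0 BeadChips, on which beads carrying a 50-base probe report a fluorescence intensity, with RNA of 1 lens on each of 4 arrays. The 2 lenses of the Celf1 cKO group, A and B, carried 1 germline null allele of Celf1 with a lacZ knock-in and 1 Celf1 flox allele, whose loxP-flanked exon is deleted by Pax6GFPCre, a Cre that is active in the lens lineage from the placode stage and also in the pancreas. The 2 lenses of the Control group, also A and B, were Celf1 lacZKI/+, so all 4 mice shared the lacZ allele and a mixed C57BL/6 and FVB background, and the sources name no Cre in the Control mice. Whether the lenses of a group came from separate litters is not stated, and the p-values measure only the spread between these lenses.

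The family works at the outer mitochondrial membrane. BAX and BAK1 are the effectors that form pores in it, BCL2, the product of Bcl2l1 (BCL-X) and MCL1 hold them back, and the BH3-only proteins BID and BAD promote pore formation directly or by occupying the inhibitors. Cytochrome c released through the pores activates the initiator caspase 9, which cleaves the executioner caspases, of which caspase 6 is known for cutting lamin A. In the lens, maturing fiber cells degrade their nuclei and organelles yet remain as living cells for the life of the animal, and parts of this machinery have been studied there for that reason.

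The probes decide which transcripts a value covers, and those in the coding sequence of members with a call, or with probes that differ, are shown first. The files give probe positions without naming a genome build, and of the 12 member probes with a position 0 fell within their gene's span in GRCm38.p6, so the positions are those of another, unnamed build. The Bax probe lies on the minus strand at chr7:45329926-45329975, starting at base 554 of the transcript. Bcl2l1 has a pair of coding probes only 119 bases apart, at chr2:152655298-152655347 and chr2:152655179-152655228 on the minus strand, and both lie in the stretch that the short, death-promoting splice form BCL-XS lacks. Capitals in the first of them mark the bases that encode the conserved core of the BH1 domain, part of the groove that binds BH3 segments. The third Bcl2l1 probe starts 47834 bases from the first, in a downstream exon at transcript base 1261, and reads both splice forms. The Casp6 probes lie at chr3:129616279-129616328 and chr3:129616388-129616437 on the plus strand, 109 bases apart.
Bax, transcript base 554: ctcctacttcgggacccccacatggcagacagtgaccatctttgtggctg
Bcl2l1, transcript base 571: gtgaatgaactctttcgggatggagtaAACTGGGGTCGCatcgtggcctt
Bcl2l1, transcript base 690: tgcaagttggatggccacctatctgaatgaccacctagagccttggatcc
Casp6, transcript base 675: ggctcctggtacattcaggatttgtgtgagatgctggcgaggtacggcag
Casp6, transcript base 784: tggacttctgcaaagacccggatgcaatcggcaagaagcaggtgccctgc

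Some properties of the arrays bear on every value below. The cKO arrays were the brighter ones, with 16261 and 16925 probes above background against 14542 and 14180, and the values below were therefore quantile normalized. Each member probe was read on 19 to 47 beads, with a standard error over beads of 3.22% to 12.4% of the signal. Celf1, the targeted gene, was reduced by 2.70-fold in cKO lenses (limma adjusted p = 0.00978). Xist, the RNA of the inactive X chromosome, was detected on both cKO arrays and on 0 of the Control arrays, with normalized log2 intensities of 7.42 and 7.27 in cKO A and B. The Y-linked Ddx3y was detected on all 4 arrays and was lower in cKO lenses (log2 fold change -3.09 ± 0.55, SE), at 6.81 in cKO A and 4.83 in cKO B against 8.99 and 8.82 in Control A and B. Both cKO arrays thus carried both signals above background, with more Ddx3y signal in cKO A, and genotype and sex-linked transcripts cannot be told apart. The lens fiber markers were measured for 8 of 8 genes, with a summed normalized intensity (offset removed) of 165300 to 171600 in cKO lenses and 186300 to 186500 in Control lenses. Of these, 2 were reduced, and of 4 tested lens epithelium markers 1 was reduced, where 5.64% of all genes were. The epithelium markers had summed intensities of 10490 to 11110 in cKO and 11810 to 14100 in Control lenses. All 4 tested epithelium markers had negative log2 fold changes, with a median of -0.665, where that of the fiber markers was -0.168. Macrophage markers summed to 58.5 to 61.6 in cKO lenses and 35.98 to 39.88 in Control lenses. Of 4 tested, 2 were called elevated, Cd68 and C1qb, where 6.01% of all genes were. Each was above background in the cKO lenses only and was retained through them. The other tested macrophage markers, Csf1r and Aif1, were above background on all 4 arrays and had log2 fold changes of -0.11 (limma adjusted p = 0.640) and -0.06 (0.791). No marker of blood, vessels, retina or pigment cells was called, and 5 of the 6 retina markers and all 4 muscle markers were above background on 0 arrays. The part of these markers in the results was not tested. In whole lenses, fewer cells of a type and less RNA per cell cannot be told apart.

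Of the 8 members, 7 were tested, on 10 retained probes, and the called members moved in opposite directions. Bax was elevated and Bcl2 was reduced, Bid, Bcl2l1 and Bad lay higher in both cKO lenses without passing the test, and Mcl1 and Casp6 overlapped between the groups. Genes had to reach an adjusted p under 0.05 and a log2 fold change beyond 0.58 in either direction to be called, and the count of 1 elevated member stands beside 6.01% of all 11516 genes tested and the count of 1 reduced member beside 5.64%. Both cKO values lay above both Control values for 4 of the 7 members, where 32.6% of all genes did so, and below them for 1 member, where 29.7% of all genes did. The median log2 fold change was 0.38 over the tested members and 0.01 over all genes. At an unadjusted p under 0.05, 5 of the 7 members passed, where 31.9% of all genes did. With n = 2 in each group an exact permutation test of a single value cannot give a p below 0.333, and the calls rest on the spread that limma pools over all genes.

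**Figure D1:**
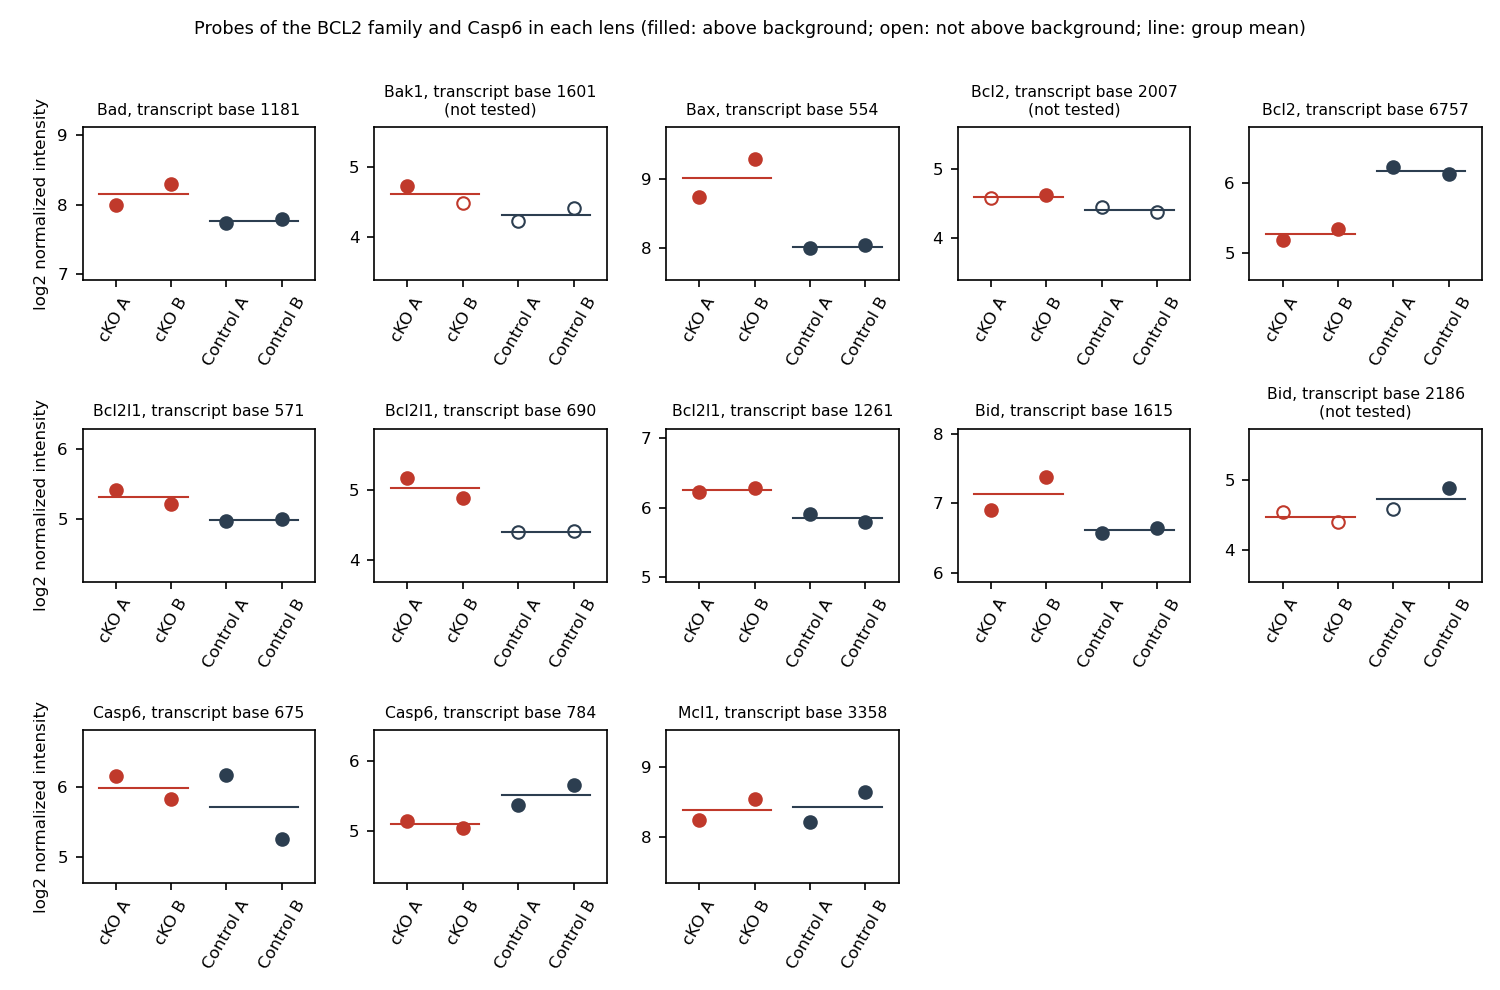
Normalized log2 intensity (y axis) of each of the 13 member probes in the 4 lenses (x axis), with cKO in red and Control in blue, filled points above background, open points not, and lines at group means. Each panel spans the same log2 range. Both cKO points of Bax lie above the Control points (8.74 and 9.28 against 8.01 and 8.04), both of the retained Bcl2 probe lie below (5.19 and 5.34 against 6.23 and 6.13), and the Casp6 panels differ in direction.

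Among the inhibitors of cell death, Bcl2, the founding member that restrains BAX and BAK1, was the only tested member that was reduced. Its retained probe, at base 6757 of transcript variant 1, had a normalized log2 intensity of 5.19 and 5.34 in cKO A and B, and of 6.23 and 6.13 in Control A and B. The cKO lenses were both lower, by nearly the same amount, and the lenses within a group differed little. The means were 5.26 ± 0.11 (SD, n = 2) in cKO and 6.18 ± 0.07 (SD, n = 2) in Control lenses, and the log2 fold change was -0.92 ± 0.14 (SE, 95% confidence interval -1.25 to -0.58, limma adjusted p = 0.0138), a 1.89-fold lower signal. This change was larger in size than that of 95.1% of all genes tested. Before normalization the intensities of this probe were 70.5 and 79.7 in the cKO lenses and 95.4 and 75.2 in the Control lenses. On that scale, which contains the background of each array, the groups overlapped, and in the authors' normalized table they did not, with 28.2 and 34.4 against 76.4 and 70.6.

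The call of Bcl2 depended on single lenses and on the scaling. It was lost without cKO A (log2 fold change -0.82, limma adjusted p = 0.0691), without cKO B (-0.95, 0.0805) or without Control B (-1.02, 0.0560). With no normalization between arrays the log2 fold change was -0.33 (limma adjusted p = 0.211), while the median of all genes moved to 0.57, so that relative to this median Bcl2 lay at -0.90. The other Bcl2 probe, at base 2007 of transcript variant 2, which encodes a form without the membrane anchor, passed the detection limit on 1 array only, cKO B, and was not tested. Its unnormalized intensities were 53.2, 56.0, 49.8 and 42.8 in cKO A, cKO B, Control A and Control B. The change of Bcl2 therefore rests on 1 probe.

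Bcl2l1, whose main product BCL-XL protects cells from BAX and BAK1, lay higher in both cKO lenses but did not pass the test. The average over its 3 probes was 5.61 and 5.47 in cKO A and B and 5.09 and 5.07 in Control A and B on the log2 scale, which do not overlap. Its change was 0.45 ± 0.14 on the log2 scale (SE, 95% confidence interval 0.13 to 0.78, limma adjusted p = 0.0733). This average includes the probe at base 690, whose Control values are limits, and over the probes above background on all 4 arrays the change was 0.37 (limma adjusted p = 0.0933). All 3 probes lay higher in both cKO lenses. The downstream probe at base 1261 lay higher by 0.40 on the log2 scale (SE 0.15, limma adjusted p = 0.122 over all probes). The BH1 probe at base 571, shown above with its core in capitals, had 0.33 ± 0.16 (SE, adjusted p = 0.201).

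The coding probe at base 690 was the only Bcl2l1 probe to be called. It gave 5.17 and 4.90 in cKO A and B and 4.40 and 4.41 in Control A and B on the log2 scale, and it exceeded background in the cKO lenses only. It was 0.63 ± 0.16 higher on the log2 scale (SE, limma adjusted p = 0.0495 over all probes), and since the Control lenses give only a limit, the signal was higher in the cKO lenses by at least 1.23-fold. The adjusted p lies just under the threshold, and the call was lost under cyclic loess (limma adjusted p = 0.0650) and without background correction (0.0724). It was also lost without Control A (0.0878) and without Control B (0.128), and without either cKO lens the probe no longer reached detection in 2 samples. With the arrays scaled by the median of the probes detected on each of them, its log2 fold change was 0.08 (limma adjusted p = 0.793). Since its Control values are limits, it was not set against the other probes. The change of the probe at base 571 differed from that of the downstream probe by -0.07 on the log2 scale. In single cKO lenses this difference was 0.05 and -0.20, with the Control lenses at -0.07 and 0.07, and it was not tested. Counting single probes, 2 of the 10 were called elevated, Bax and the one at base 690, against 6.04% of all 16262 probes. In the other direction 1 was called reduced, Bcl2, against 5.5%. The probe at base 690 was retained through the cKO lenses alone and its bound lies under the fold threshold, so its call gives no separate support.

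Mcl1, an inhibitor with a short-lived protein, did not separate the groups. Its single probe had 8.24 and 8.54 in cKO A and B and 8.22 and 8.65 in Control A and B on the log2 scale. Each group held a lower and a higher lens, and both cKO values lay between the Control values. The log2 fold change was -0.04 ± 0.19 (SE, limma adjusted p = 0.899), and the 95% confidence interval was -0.50 to 0.42. The unnormalized intensities, 417.7 and 552.7 against 280.9 and 285.7, did not overlap, and with no normalization between arrays Mcl1 was called elevated (log2 fold change 0.82, limma adjusted p = 0.00344). The median of all genes moved too, and Mcl1 lay 0.25 above it.

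Among the effectors, Bax was elevated. Its probe, in the coding sequence printed above, had a normalized log2 intensity of 8.74 and 9.28 in cKO A and B, and of 8.01 and 8.04 in Control A and B. Both cKO lenses were higher than both Control lenses, cKO B more so, and the Control lenses lay close together. The means were 9.01 ± 0.38 (SD, n = 2) and 8.03 ± 0.02 (SD, n = 2), and the log2 fold change was 0.98 ± 0.20 (SE, 95% confidence interval 0.52 to 1.45, limma adjusted p = 0.0264), a 1.98-fold higher signal. This change was larger in size than that of 96.0% of all genes. The groups were also apart before normalization, with intensities of 584.7 and 899.6 in the cKO lenses and 245.2 and 199.2 in the Control lenses. The call was lost without cKO B (log2 fold change 0.71, limma adjusted p = 0.146), without Control A (0.96, 0.0619) or without Control B (1.01, 0.0981), and it held without cKO A (1.26, adjusted p = 0.0182).

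Bak1, the other pore-forming effector, was at the limit of detection. Its unnormalized intensities were 57.1 in cKO A, 52.2 in cKO B, 42.0 in Control A and 43.6 in Control B, and the detection p-values that rank these against negative control beads were 0.0192, 0.111, 0.812 and 0.255. It was above background on 1 array, cKO A, and was not tested. These arrays therefore do not show whether Bak1 differed.

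The BH3-only members lay higher in both cKO lenses and neither passed the test. Bid, which is activated by caspase 8 and engages BAX, had 6.90 and 7.37 in cKO A and B and 6.58 and 6.65 in Control A and B on the log2 scale, and the log2 fold change was 0.53 (SE 0.18, limma adjusted p = 0.104). As for Bax, cKO B was the highest of the 4 lenses. A further Bid probe, at base 2186, was above background in Control B only and was not tested. Bad, which binds BCL2 and BCL-XL when it is not phosphorylated, had 7.99 and 8.30 in cKO A and B and 7.73 and 7.79 in Control A and B, and the log2 fold change was 0.38 (SE 0.16, limma adjusted p = 0.147). The 95% confidence intervals, 0.09 to 0.96 for Bid and 0.01 to 0.75 for Bad, include changes beyond the fold threshold as well as changes near 0. Without cKO B the log2 fold changes were 0.29 for Bid (limma adjusted p = 0.534) and 0.23 for Bad (0.620), and without cKO A they were 0.75 (0.0871) and 0.54 (0.181).

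**Figure D2:**
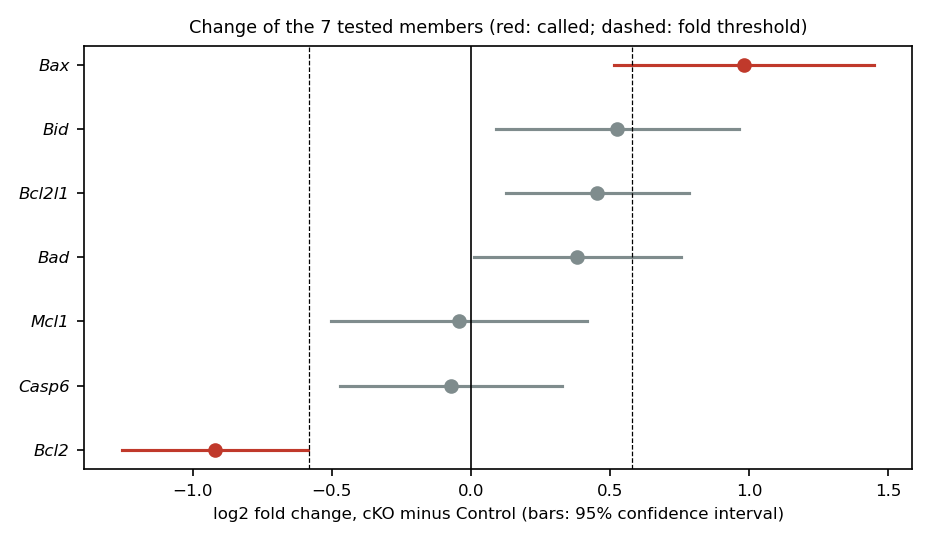
Log2 fold change, cKO minus Control (x axis), of the 7 tested members (y axis), with bars for the 95% confidence interval, red for called genes, and dashed lines at the fold threshold of 0.58 in either direction. Bax lies at 0.98 and Bcl2 at -0.92, Bid, Bcl2l1 and Bad lie between 0.38 and 0.53, and Mcl1 and Casp6 lie near 0.

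Casp6, the executioner caspase among the members, was not called, and its probes disagreed. The average of its probes had 5.65 and 5.43 in cKO A and B and 5.77 and 5.46 in Control A and B on the log2 scale, and the log2 fold change was -0.07 (SE 0.17, limma adjusted p = 0.802). The probe at base 784 had 5.15 and 5.04 in cKO A and B and 5.36 and 5.66 in Control A and B, lower in both cKO lenses (log2 fold change -0.42 ± 0.17, SE, limma adjusted p = 0.144 over all probes). With the arrays scaled by the median of the probes detected on each of them, this probe was called reduced (-0.68, limma adjusted p = 0.0249). The median of all genes moved to -0.19 under that scaling. The probe at base 675 had 6.16 and 5.82 in cKO A and B and 6.18 and 5.25 in Control A and B, a difference of 0.28 ± 0.29 (SE, adjusted p = 0.566). Control A was the highest lens for this probe and Control B the lowest, and its bead standard error on Control B was 11.8% of the signal. The difference of the probes was 0.81 and 0.58 above the Control mean in the cKO lenses and 0.61 and -0.61 in the Control lenses, so cKO B lay within the range of the Control lenses and cKO A above it. The averaged value for Casp6 is therefore a mean of probes 109 bases apart with opposite signs.

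The other genes of cell death were taken from lists that hold 60 genes by role, of which 59 are on the array and 41 were tested. Of the 41, 3 were elevated, 1 was reduced and 37 were not called, beside 6.01% elevated and 5.64% reduced of all genes, with a median log2 fold change of 0.12 against 0.01 over all genes. The groups did not overlap for 18 genes that lay higher and 9 that lay lower in the cKO lenses, where 32.6% and 29.7% of all genes did so. The called genes were Bok, Diablo and Lmna, elevated, and Bcl2l2, reduced. Of these, Bok was retained through the cKO lenses alone, so its call rests on the lenses where it is high.

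Bcl2l2, which encodes the inhibitor BCL-W, was reduced as Bcl2 was. It had 8.31 and 8.13 in cKO A and B and 9.49 and 9.52 in Control A and B on the log2 scale, and the lenses of each group lay close together. Its log2 fold change was -1.28 ± 0.14 (SE, limma adjusted p = 0.00551), a 2.43-fold lower signal. Its retained probes both passed on their own, with log2 fold changes of -1.33 and -1.23, and the call held without any single lens. With no normalization between arrays the log2 fold change was -0.42 (limma adjusted p = 0.0996). Of the 5 listed inhibitors it was the only one tested.

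Among the effectors and BH3-only genes of the lists, Bok, a pore-forming relative of BAX and BAK1, was called elevated, with Control values that are limits. It had 5.31 and 5.17 in cKO A and B and 4.33 and 4.56 in Control A and B on the log2 scale, and the log2 fold change was 0.79 (SE 0.15, limma adjusted p = 0.0230). Bok was above background in no Control lens and was retained through the cKO lenses alone, so its adjusted p gives no separate support. Its signal was higher in the cKO lenses by at least 1.41-fold, a bound under the fold threshold. Without Control B the log2 fold change was 1.01 and the call was lost (limma adjusted p = 0.0560), and without either cKO lens Bok was not tested. The call was also lost without background correction (0.47, adjusted p = 0.0358) and with a normexp offset of 50 (0.37, adjusted p = 0.0452), where the change fell under the fold threshold, and scaling the arrays by the median of the probes detected on each of them gave 0.30 (adjusted p = 0.252). Of the 8 listed BH3-only genes, 4 were tested and 0 were called by limma, and 0 had an unadjusted p under 0.05, where 6.01% of all genes were elevated, 5.64% reduced and 31.9% had such a p. Bcl2l11, the BH3-only gene for BIM, lay higher by 0.26 on the log2 scale (SE 0.14, limma adjusted p = 0.261). Bbc3, the BH3-only gene for PUMA, had 0.15 ± 0.14 (SE, adjusted p = 0.514), with single probes at 0.84 (called, limma adjusted p = 0.0360) and -0.54 (adjusted p = 0.0810). Bbc3 was called elevated in 5 of 17 alternatives, among them those that kept the first of these probes alone, so its value depends on which probe is read.

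Downstream of the mitochondria, the genes of the apoptosome were not called. The initiator Casp9 lay higher by 0.21 on the log2 scale (SE 0.16, limma adjusted p = 0.426). The partners that activate it, Apaf1 and Cycs (cytochrome c), had 0.34 ± 0.15 (SE, adjusted p = 0.171) and 0.15 ± 0.15 (SE, adjusted p = 0.514).

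Diablo, whose mitochondrial protein relieves the inhibition of caspases by IAP proteins, was elevated. It had 8.87 and 9.02 in cKO A and B and 7.98 and 8.18 in Control A and B on the log2 scale, and the log2 fold change was 0.86 (SE 0.15, limma adjusted p = 0.0186), a 1.82-fold higher signal. Xiap, the IAP that binds executioner caspases, was above background on 0 arrays. Of the 5 tested IAP genes and antagonists Diablo was the only one called, where 6.01% of all genes were elevated. At an unadjusted p under 0.05, 3 of the 5 passed, where 31.9% of all genes did. Beside Diablo these were the IAP genes Birc2 and Birc3, named after their values were seen. Birc2 lay at 0.32 on the log2 scale (SE 0.13, limma adjusted p = 0.15). Birc3 was above background in no Control lens and was retained through the cKO lenses alone. Its p (limma adjusted p = 0.130) therefore rests on limits and gives no separate support, and only a bound of at least 1.01-fold higher is given. The call of Diablo was lost without cKO A, at a log2 fold change of 0.94, without cKO B, at 0.78, and without Control B, at 0.97.

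Lmna, which encodes the lamin A that caspase 6 cleaves, was the elevated gene among 5 tested caspase substrates, where 6.01% of all genes were elevated. It had 6.94 and 7.29 in cKO A and B and 5.89 and 6.08 in Control A and B on the log2 scale, averaged over 6 probes. The log2 fold change was 1.13 ± 0.17 (SE, limma adjusted p = 0.0129), a 2.19-fold higher signal, and the single probes ranged from 0.40, the one not called, to 1.51. The other substrate gene with an unadjusted p under 0.05 was Lmnb2, also named after its value was seen, which encodes lamin B2 and lay lower in both cKO lenses (log2 fold change -0.46, SE 0.15, limma adjusted p = 0.0930). The call was lost without cKO B, at a log2 fold change of 1.05 (limma adjusted p = 0.0717), and without Control B, at 1.26 (0.0560). No gene was called among the other BCL2-like genes, the initiator and inflammatory caspases, the apoptosome, the death receptor pathway, the mitochondrial partners or the regulators of MCL1 and BAD protein. These lists held 2, 2, 1, 2, 7, 3 and 8 tested genes, in this order, where 6.01% of all genes were elevated and 5.64% reduced. At an unadjusted p under 0.05, 1 inflammatory caspase gene and 3 death receptor genes passed among these, and 0 of the others, where 31.9% of all genes did. These genes are named after their values were seen. The inflammatory caspase gene was Casp4, at -0.39 on the log2 scale (SE 0.14, limma adjusted p = 0.110). Of the 7 tested death receptor genes, 3 lay higher and 3 lower in both cKO lenses, where 32.6% and 29.7% of all genes did, and their median log2 fold change was -0.01. Cflar, which encodes an inhibitor of caspase 8 activation, had a mean of 6.12 ± 0.12 (SD, n = 2) in cKO and 6.68 ± 0.17 (SD, n = 2) in Control lenses, which did not overlap. Its change was -0.57 on the log2 scale (SE 0.16, limma adjusted p = 0.0578). Ripk1, which encodes a kinase of the receptor complexes, had -0.37 ± 0.14 (SE, adjusted p = 0.114). When the arrays were scaled by the median of the probes detected on each of them, Casp4, Cflar, Ripk1 and the BH3-only gene Bmf were called reduced. The median of all genes then moved to -0.19, and 2023 of 2690 calls over all genes were reduced. Tnfrsf10b, which encodes a TRAIL death receptor, had 5.88 and 6.47 in cKO A and B and 5.38 and 5.46 in Control A and B on the log2 scale. Its log2 fold change was 0.76 ± 0.21 (SE, limma adjusted p = 0.0586). Of its 4 retained probes, 3 were called elevated on their own, where 6.04% of all probes were. These had log2 fold changes of 0.89, 1.22 and 1.23, and the other had -0.31 (limma adjusted p = 0.421). With a replicate block Tnfrsf10b was called.

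**Figure D3:**
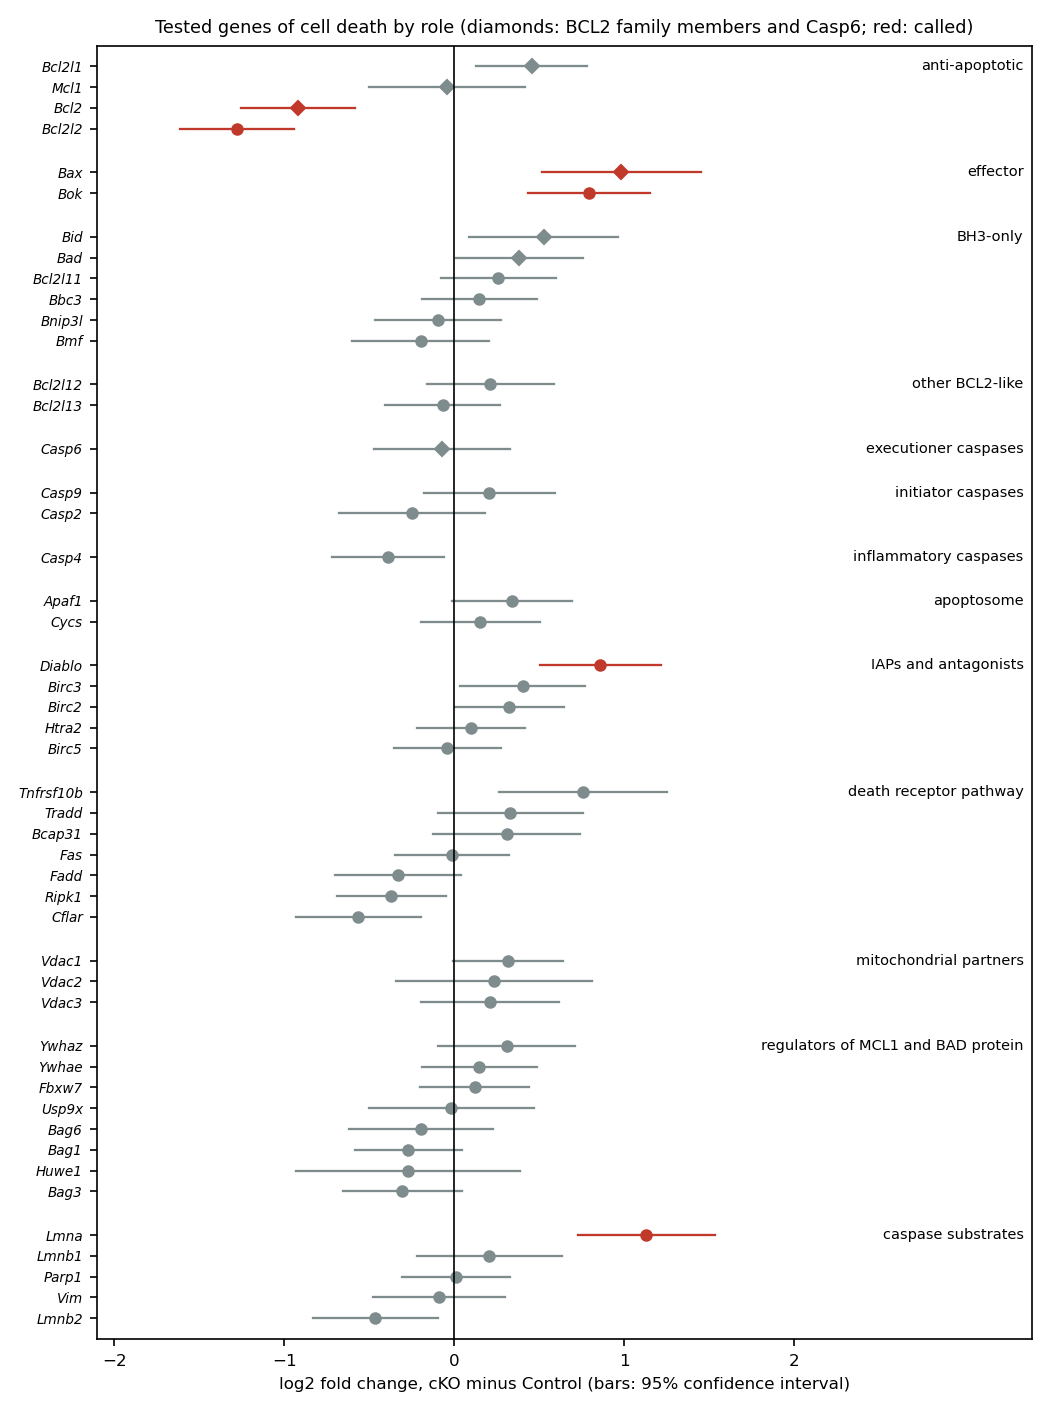
Log2 fold change, cKO minus Control (x axis), of the 7 tested members (diamonds) and the 41 tested list genes (circles), grouped by role (labels at the right), with bars for the 95% confidence interval and red for called genes. Bcl2 and Bcl2l2 lie at -0.92 and -1.28 among the inhibitors, and Bax at 0.98 among the effectors. The points of Bok and Birc3 rest on Control lenses not above background, where the changes are at least 1.41-fold and 1.01-fold.

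The genes whose pattern over the 4 lenses was nearest to that of Bcl2 were looked up among 11515 genes, by Euclidean distance of log2 values centred on each gene's mean. The nearest were LOC100045869 (distance 0.07, log2 fold change -0.87), Ppp2r5e, a regulatory subunit of a serine/threonine phosphatase (distance 0.07, log2 fold change -0.97), and Aldh5a1, an enzyme of GABA breakdown (distance 0.08, log2 fold change -0.97). Over 4 lenses in 2 groups, such nearness reflects a change of like size and like small spread.

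The members were followed through 17 alternatives that keep all 4 lenses. Bax was called in 14 of them, with log2 fold changes from 0.90 to 1.85, and Bcl2 in 11, with log2 fold changes from -1.24 to -0.33. Many of the 17 alter the test or the filter and leave a member's fold change as it is, and 8 to 10 of them changed it. Among those, the sign of Bax, Bcl2, Bcl2l1, Bid and Bad was kept each time, that of Casp6 in 6 of 9 and that of Mcl1 in 5 of 8. The sizes varied more, with log2 fold changes from 0.13 to 0.89 for Bcl2l1, from 0.13 to 1.31 for Bid and from 0.34 to 1.24 for Bad. The lowest value of Bcl2l1 came with the median of probes detected on all arrays (limma adjusted p = 0.550) and that of Bid without the detection filter (0.650). Set against the median of all genes under the same setting, Bax ranged from 0.89 to 1.28 and Bcl2 from -1.22 to -0.36.

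**Figure D4:**
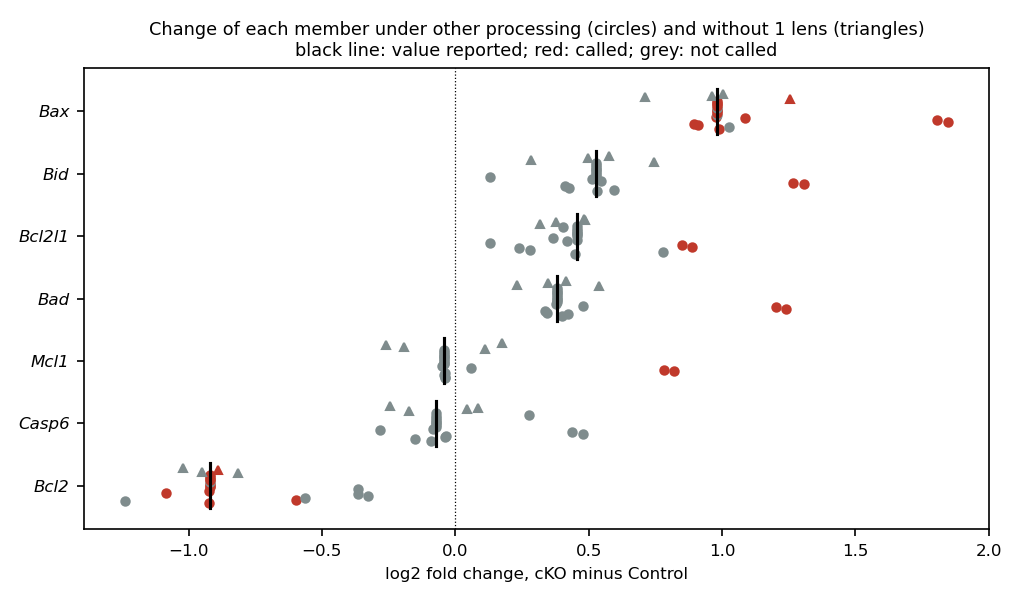
Log2 fold change, cKO minus Control (x axis), of each tested member (y axis) under the 17 alternatives with all lenses (circles) and without 1 lens (triangles), with red for called values, grey for values not called and a black line at the value reported. Bax stays between 0.71 and 1.85 and Bcl2 between -1.24 and -0.33, while Mcl1 and Casp6 lie on both sides of 0.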

How the data were processed

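Microarray data of 4 P6 mouse lenses (2 Celf1 cKO, 2 Control) were used. The deposited files held unnormalized and rank-invariant normalized signal intensity. The normalized intensity on each array was a linear function of the first, with factors from 0.889 to 1.93. The deposited tables also held a detection p-value, bead counts and bead standard errors. Of 45281 probes, 18 with shifted cells were left out. Members were found by the symbol of the files, and other probes were named through a RefSeq table (GRCm38.p6), with 8344 keeping the file's symbol. Background was corrected with neqc of limma 3.58.1 (R 4.3.3, offset 16), followed by quantile normalization and log2. Following the study's methods, probes above background in at least 2 samples (detection p under 0.05) were kept, log2 values were averaged per gene, and calls needed an adjusted p under 0.05, a log2 fold change beyond 0.58 in either direction and a log2 signal above 4.6 on average. The authors used edgeR on signal, a count model that was not applied to intensities here. lmFit and eBayes were used (two-sided) and p-values were adjusted by Benjamini-Hochberg across the 11516 genes or 16262 probes. The number of arrays limits the precision. Where no array of a group exceeded background, the bound sets the brighter group's mean against the mean, per array of the dimmer group, of the lowest signal among detected probes or its own, whichever was higher. The genes named are the members, the called genes of the lists, a fixed set of pathway genes, the 3 nearest genes to Bcl2, and Celf1. The macrophage markers Cd68, C1qb, Csf1r and Aif1 were named after their values were seen. So were the list genes Birc2, Birc3, Bmf, Lmnb2, Casp4, Cflar, Ripk1 and Tnfrsf10b, and the sex-linked Xist and Ddx3y. Some genes of the pathway are not reported here. The members and lists were chosen with earlier results of these data known. Figures were drawn with matplotlib 3.10.9 (Python 3.11.15).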

Additional observations from a re-analysis of the deposited data

Results flagged for a closer look

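Signal outside the tested values was found for member probes that did not meet the rule of 2 samples above background. Of the member probes, 3 were above background on exactly 1 array. The Bak1 probe had an unnormalized intensity of 57.1 in cKO A, above background, while the Control lenses had 42.0 and 43.6, not above background. The Bcl2 probe of transcript variant 2 had 56.0 in cKO B, above background, while the Control lenses had 49.8 and 42.8, not above background. Each of these was seen in 1 of the 2 cKO lenses. The Bid probe at base 2186 was above background in Control B only (detection p = 0.0299), with unnormalized intensities of 52.1, 49.1, 52.5 and 50.5 in cKO A, cKO B, Control A and Control B. Over the whole array 2812 of 45263 probes (6.21%) passed the detection limit on exactly 1 array.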

How the results depend on the processing

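The count of called members was 2 (Bax and Bcl2) and that of called member probes 3. Both counts were 0 with the authors' normalized table at a floor of 1, without the detection filter, and when limma's treat tested against the threshold of 0.58. The counts were 1 and 1 with a normexp offset of 50, where Bcl2 lay just inside the fold threshold (-0.56, limma adjusted p = 0.0158). With no normalization between arrays or the same median for each array they were 5 and 8, all elevated (Bad, Bax, Bcl2l1, Bid and Mcl1 among genes), where all genes had a median of 0.57 and 0.53 and 97.7% and 97.3% of calls were elevated, against 51.6% as reported. With the same median over probes detected on all arrays the share was 24.8%, and Bax and Bcl2 were called, as was the Casp6 probe at base 784 (-0.68, limma adjusted p = 0.0249, against -0.42 as reported). Leaving out 1 lens gave 0 to 1 members and 0 to 1 probes. Casp6 changed sign with no normalization (0.48), the same median (0.44) and the brightest probe (0.28), and Mcl1 with no normalization (0.82), the same median (0.78) and the same median over detected probes (0.0594). Bbc3 (0.15 as reported) was called at 0.84 with detection in all samples (limma adjusted p = 0.0248), detection p under 0.01 (0.0313) and the brightest probe (0.0319), and changed sign with the floor of 1 (-0.19) and the same median over detected probes (-0.0878), where Casp9 (-0.0364) and Cycs (-0.0319) did too. Without 1 lens Casp6 ranged from -0.25 to 0.0858 and Mcl1 from -0.26 to 0.17. The called list genes numbered 4 as reported and 0 to 25 under the 17 alternatives. The labels do not say that the letters A and B pair the lenses. The correlation of their differences was -0.01 across genes, which cannot show whether lenses of 1 letter share a litter or batch. With a replicate block 2 members and 3 probes were called, as reported. Over all genes the calls numbered 1341 as reported, 1685 with the replicate block, 7 with the floor of 1, 86 with treat, 207 with no detection filter, 789 with the normexp offset of 50, 5788 with no normalization, 5417 with the same median and 2690 with that over detected probes. Without 1 lens they numbered 163 to 1364. The causes were not tested. The number of arrays limits the precision, and probes near background, Bak1 and the Bcl2l1 probe at base 690 among them, give limits only.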
